A study of Homo sapiens with 6 samples.

Results

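The 31 genes described here encode the glucose transporters, the enzymes of glycolysis, the lactate dehydrogenases and lactate transporters, and the kinases that set the flow of sugar into and out of the pathway. They were found by matching gene symbols, and all 31 were present among the 58735 genes of the deposited tables. The cells were PANC-1, a widely used line from a human pancreatic ductal adenocarcinoma, and their RNA was sequenced after silencing of METTL16, an N6-methyladenosine (m6A) RNA methyltransferase. By the methods, the 3 si-METTL16 samples received small interfering RNA (siRNA) against METTL16 and the 3 si-NC samples received control siRNA. For METTL16 silencing in PANC-1 the methods elsewhere name short hairpin RNA, with stable cells selected in puromycin. Which of these reagents the sequenced cells received is not clear. The controls are named si-NC in their titles and wild type in another label. All 6 samples come from the same line grown in high-glucose medium with serum, and the methods describe biological triplicates of stably transfected cells. Which silencing sequence was used and when the RNA was collected are not given in the sources used here. Total counts lay between 15725298 and 18054436 per sample. METTL16 itself was counted 1546, 1641 and 1764 times in the si-NC samples and 571, 528 and 627 times in the si-METTL16 samples, and fell by 1.48 on the log2 scale (SE 0.07, edgeR adjusted p = 8.34e-05).

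Glycolysis splits glucose into pyruvate in the cytosol and yields ATP and NADH without oxygen. Lactate dehydrogenase reduces pyruvate to lactate and returns the NAD that an upstream step needs, and monocarboxylate transporters carry lactate across the cell membrane. Many tumours, pancreatic adenocarcinoma among them, run this route at a high rate even when oxygen is present, and hypoxia-inducible factors and MYC are well-known activators of its genes.

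Silencing of METTL16 was accompanied by changes in 6 of the 31 genes, in both directions. HK2, TPI1 and SLC16A1 rose, and ENO1, PDK2 and PGM1 fell, at an adjusted p under 0.05 over all 15089 genes tested with the quasi-likelihood test of edgeR. The 6 genes are 19.4% of the list, beside 35.9% of all tested genes called in the same comparison. In each direction the 3 called genes are 9.68% of the list, beside 18.4% of all tested genes called higher and 17.5% called lower. The median log2 fold change of the list was 0.03, with 17 genes above 0 and 14 below, and that of all tested genes was -0.00. Sizes were small: the median absolute log2 fold change was 0.20 over the list and 0.33 over all tested genes. No member reached 1 in size, called or not. Of all 15089 tested genes, 1172 were called and reached 1 in size. The median standard error was 0.11 for the list and 0.14 for all tested genes. Together the 31 genes took 1.21, 1.44 and 1.27% of all counts in the si-NC samples and 1.18, 1.22 and 1.33% in the si-METTL16 samples, so their summed share overlapped between the groups. Single samples moved the counts of calls: without si-NC replicate 2, SLC2A1 and PKM were also called and 5 genes were higher. Without si-METTL16 replicate 3, LDHA and ENO3 were also called and 5 genes were lower. In that fit PFKFB3 was also called higher (edgeR adjusted p = 0.0248) and TPI1 lost its call (0.061). Without si-NC replicate 3, TPI1 lost its call, 2 genes were higher, and LDHA was also called lower (edgeR adjusted p = 0.0217).

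**Figure D1:**
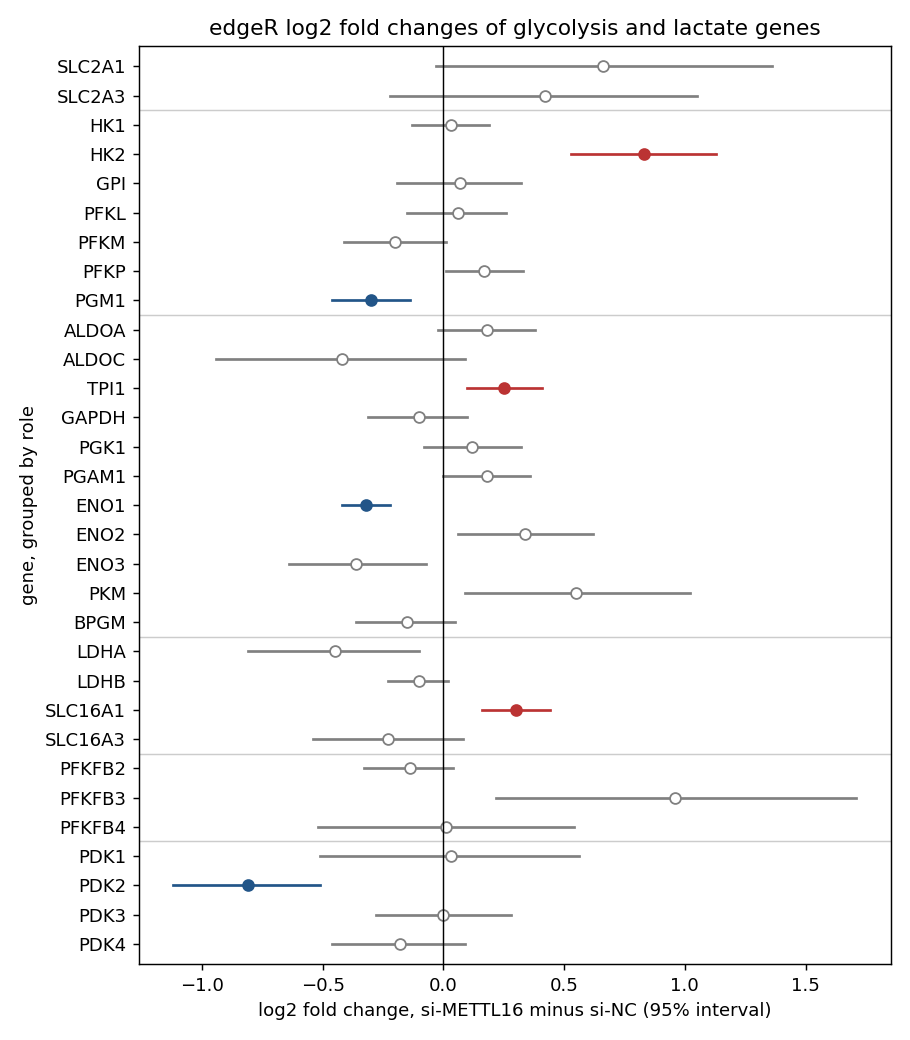
Log2 fold change of each of the 31 genes, si-METTL16 minus si-NC (x axis, points, with 95% intervals as lines), with genes grouped by role from glucose uptake at the top to the pyruvate dehydrogenase kinases at the bottom. Filled red points are the 3 genes called higher, filled blue points the 3 called lower, and open points the 25 not called; the widest intervals are those of PFKFB3 (0.22 to 1.71) and SLC2A1 (-0.03 to 1.36).

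Upstream sequence is shown for the gene with the largest called rise (HK2), the gene with the largest called fall (PDK2) and LDHA, whose product makes lactate. Each line gives the 250 bases before a RefSeq start site, read 5′ to 3′ on the plus strand of GRCh38.p14. Capitals mark the letters ACGTG or their reverse complement CACGT, the core of the element bound by hypoxia-inducible factors, which also lies within CACGTG, the E-box bound by MYC and its partners. The HK2 line is chr2:74834920-74835169 and the PDK2 line is chr17:50095101-50095350, and each lies inside its deposited gene, upstream of a RefSeq start site. The LDHA line is chr11:18394313-18394562, and the deposited LDHA gene starts within it, at 18394388.
HK2: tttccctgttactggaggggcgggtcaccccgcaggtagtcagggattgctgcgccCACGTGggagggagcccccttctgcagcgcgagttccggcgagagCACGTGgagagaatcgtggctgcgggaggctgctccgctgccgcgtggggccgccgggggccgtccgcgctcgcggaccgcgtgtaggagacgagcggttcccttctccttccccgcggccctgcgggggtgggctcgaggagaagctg
PDK2: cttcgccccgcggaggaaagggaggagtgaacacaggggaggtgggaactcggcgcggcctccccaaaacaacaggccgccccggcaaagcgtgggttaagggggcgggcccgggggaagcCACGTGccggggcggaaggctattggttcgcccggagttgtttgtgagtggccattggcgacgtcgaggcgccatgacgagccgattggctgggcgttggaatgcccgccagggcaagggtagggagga
LDHA: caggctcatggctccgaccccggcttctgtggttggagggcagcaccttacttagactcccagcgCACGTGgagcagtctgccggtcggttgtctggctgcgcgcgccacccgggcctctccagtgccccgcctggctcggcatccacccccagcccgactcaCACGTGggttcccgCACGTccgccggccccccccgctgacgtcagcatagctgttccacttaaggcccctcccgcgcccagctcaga
The HK2 and LDHA stretches each hold CACGTG at 2 places and the PDK2 stretch at 1. They were chosen because they hold CACGTG: RefSeq gives 1 further window for HK2, 1 for LDHA and 2 for PDK2, and none of those holds CACGTG. The further HK2 window holds ACGTG or its reverse complement at 2 places, and those of LDHA and PDK2 hold neither. RefSeq windows of 300 bases, from 250 before to 50 after the start site, matched 28 of the 31 genes, and none was found for SLC2A3, SLC16A1 and PFKFB2. CACGTG was present in a window of 7 of the 28 genes (25%), namely ALDOA, ALDOC, GAPDH, HK2, LDHA, PDK2 and PFKFB3, beside 8.77% of 27305 genes. ACGTG on either strand, counted with those inside CACGTG, was present in a window of 18 of the 28 genes (64.3%), beside 24.9% of genes. The 28 genes have 59 windows and all 27305 genes have 35116, so the members have more windows per gene and more chances to hold a match. By window the shares were 37.3% against 21.4% of 35116 windows for ACGTG and 11.9% against 7.26% for CACGTG. A match of letters is no evidence of a bound site, and no binding was measured here.

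Levels are given below as deposited FPKM, fragments per kilobase of gene length, scaled by the sample's total, which allows genes of different length to be set side by side. GAPDH (281 to 356 over the 6 samples) and ENO1 (232 to 308) were the most abundant, followed by LDHB (154 to 177). SLC2A3 was the least abundant, at 0.125 to 0.263. Fewer cells that express a gene and less RNA per cell cannot be told apart in such bulk samples. In the scaled counts, the range of the 3 controls and that of the 3 silenced samples were separate for 16 of the 31 genes (51.6%), beside 50.9% of all tested genes.

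**Figure D2:**
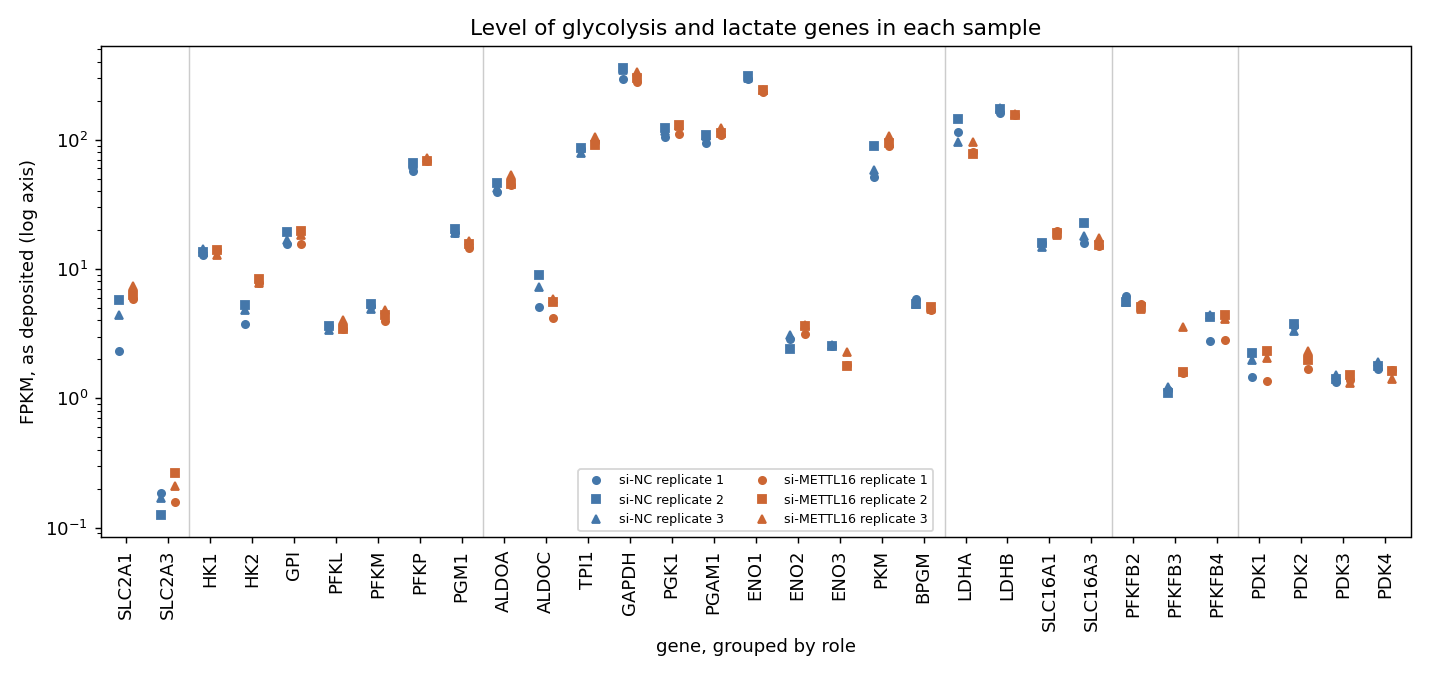
Deposited FPKM (y axis, log scale) of the 31 genes in every sample, with genes grouped by role along the x axis, si-NC in blue, si-METTL16 in orange and the symbol giving the replicate number. Levels span from SLC2A3, at 0.125 to 0.263, to GAPDH, at 281 to 356, and HK2 and PDK2 show the widest gaps between groups among the called genes.

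Glucose enters most tumour cells through SLC2A1 (GLUT1), with SLC2A3 (GLUT3) as a transporter of higher affinity. SLC2A1 stood at 2.31, 5.77 and 4.4 FPKM in the si-NC samples and at 5.86, 6.33 and 7.32 in the si-METTL16 samples. The lowest silenced sample lay just above the highest control, and the controls themselves differed more among each other than the silenced samples did. The log2 fold change was 0.66 (SE 0.29, 95% interval -0.03 to 1.36), and edgeR did not call it (adjusted p = 0.12). The estimate without si-NC replicate 2, the highest control, was 0.97 and was called (edgeR adjusted p = 0.0407). SLC2A3 was counted 28 to 55 times per sample, its groups overlapped, and its log2 fold change was 0.42 (95% interval -0.22 to 1.05).

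Hexokinases trap glucose in the cell as glucose-6-phosphate. HK2 (ENSG00000159399, chr2:74833981-74893359, plus strand), the isoform typical of muscle and of many tumours, was at 3.76, 5.22 and 4.78 FPKM in si-NC samples and at 7.77, 8.41 and 7.85 in si-METTL16 samples. Every silenced sample exceeded every control, and the mean went from 4.58 ± 0.75 (SD, n = 3) to 8.01 ± 0.351 (SD, n = 3). This rise to 177% of control was the largest among the called genes of the list (log2 fold change 0.83, SE 0.13, edgeR adjusted p = 0.0027), and all 17 alternative analyses called it. HK1, the more widely expressed isoform, lay between 12.7 and 14.3 FPKM in all 6 samples and was not called (log2 fold change 0.03, 95% interval -0.13 to 0.19). HK2 made up 22.6, 28 and 25.1% of the summed FPKM of the pair in the controls and 35.7, 37.6 and 38.2% after silencing, a difference of 11.9 percentage points. The exact permutation test gave p = 0.1, the smallest value that 3 samples against 3 allow. The single HK2 pseudogene held 1.85% of the counts of gene and pseudogene together.

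Beyond hexokinase, GPI converts glucose-6-phosphate to fructose-6-phosphate and phosphofructokinase commits the sugar to glycolysis, while PGM1 exchanges glucose-1-phosphate and glucose-6-phosphate and so links the route to glycogen. PGM1 (ENSG00000079739, chr1:63593276-63660245, plus strand) was at 18.9, 20.2 and 18.8 FPKM in si-NC samples and 14.5, 15.5 and 16.4 in si-METTL16 samples. The groups were clearly separate. PGM1 fell to 81.3% of control (log2 fold change -0.30, SE 0.07, edgeR adjusted p = 0.0134). The call was lost when both replicate 1 samples were left out, an analysis added after the values were seen (edgeR adjusted p = 0.0657). PGM1 shares 197 exonic bases with ITGB3BP on the other strand, which rose by 0.94 on the log2 scale (edgeR adjusted p = 0.00148), opposite to PGM1.

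PFKP, the platelet-type phosphofructokinase, was the main isoform of the cells. Its FPKM was 57.1, 66.4 and 64 in controls and 67.8, 68 and 72.3 after silencing. The silenced samples all lay above the controls, by a narrow margin, and the gene was not called (log2 fold change 0.17, SE 0.07, edgeR adjusted p = 0.0876). PFKM, the muscle type, ranged from 3.98 to 5.39 FPKM and PFKL, the liver type, from 3.34 to 4, and neither was called (95% intervals -0.41 to 0.01 and -0.15 to 0.26). PFKM shares 516 exonic bases with SENP1 on the other strand, which rose by 0.39 on the log2 scale (edgeR adjusted p = 0.00284). SENP1 was counted 6767 times in all beside 6700 for PFKM. PFKP held 86.7 to 88.7% of the summed FPKM of the 3 isoforms in controls and 89.1 to 90.2% in silenced samples (exact permutation p = 0.1). GPI was at 15.6 to 19.6 FPKM with overlapping groups and a log2 fold change of 0.07 (95% interval -0.19 to 0.32).

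The later part of the pathway, from aldolase to pyruvate kinase, is where ATP and NADH are made. Of its 11 genes here, TPI1 rose, ENO1 fell and 9 were not called. TPI1 (ENSG00000111669, chr12:6867119-6870948, plus strand) interconverts the triose phosphates. It was at 84.8, 85.4 and 78.2 FPKM in si-NC samples and at 96.6, 91.1 and 104 in si-METTL16 samples. The groups were separate, and the level rose to 119% of control (log2 fold change 0.25, SE 0.07, edgeR adjusted p = 0.0218). Of 17 alternatives, 12 called TPI1. It was lost, among others, without si-NC replicate 3 (edgeR adjusted p = 0.0742), without si-METTL16 replicate 1 (0.054) or replicate 3 (0.061), and without both replicate 1 samples (0.0858). Reads of TPI1 can be split with its 4 pseudogenes, which held 12.3% of the counts of gene and pseudogenes together. The pseudogene TPI1P1 had a log2 fold change of 0.08 (edgeR adjusted p = 0.487).

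Enolase forms phosphoenolpyruvate, and ENO1 is its general isoform. ENO1 (ENSG00000074800, chr1:8861000-8879250, minus strand) was at 296, 308 and 299 FPKM in controls and at 232, 240 and 242 after silencing. The spread within each group was far below the gap between them. ENO1 fell to 80.2% of control (log2 fold change -0.32, SE 0.04, edgeR adjusted p = 0.00135), and all 17 alternatives called it. ENO2, the neuronal isoform, was at 2.89, 2.39 and 3.06 FPKM in controls and 3.12, 3.64 and 3.67 after silencing, without overlap. Its log2 fold change of 0.34 (SE 0.12, edgeR adjusted p = 0.0598) was not called in any of the 17 alternatives. ENO3, the muscle isoform, was at 2.54, 2.52 and 2.58 FPKM against 1.81, 1.77 and 2.29, also without overlap. Its log2 fold change of -0.36 (SE 0.12, edgeR adjusted p = 0.0566) was not called here but was called lower in 5 of 17 alternatives. ENO3 shares 111 exonic bases with the far more abundant PFN1 on the other strand, which was counted 103218 times in all against 1732 for ENO3. ENO1 supplied 98.3% of the enolase FPKM in controls and 97.8% after silencing, so the minor isoforms together stayed small.

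Pyruvate kinase, encoded by PKM, ends the pathway. Its FPKM was 51.3, 89.7 and 58.5 in si-NC samples and 89, 93.3 and 107 in si-METTL16 samples. In FPKM, control replicate 2 lay just above the lowest silenced sample and the other controls lay far below, while in the scaled counts the groups were separate. The log2 fold change was 0.55 (SE 0.20, 95% interval 0.09 to 1.02), just outside the threshold (edgeR adjusted p = 0.0646). Without si-NC replicate 2 it was 0.82 and was called (edgeR adjusted p = 0.00247), and 4 of 17 alternatives called it in all, among them the Wald test of DESeq2 (adjusted p = 0.0181) and limma on voom values (0.0454). The gene-level counts do not separate the M1 and M2 splice forms of PKM.

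GAPDH, the NADH-forming dehydrogenase that often serves as a reference gene, was at 295, 356 and 344 FPKM in controls and at 281, 298 and 333 after silencing. The groups overlapped, and the log2 fold change was -0.10 (SE 0.09, 95% interval -0.31 to 0.10, edgeR adjusted p = 0.398). Its 62 pseudogenes held 1.58% of the counts of gene and pseudogenes together. ALDOC, the brain-type aldolase, was at 5.04, 8.91 and 7.21 FPKM in controls and 4.18, 5.51 and 5.83 after silencing, with overlap and a log2 fold change of -0.42 (95% interval -0.94 to 0.09). ALDOC held 11.3 to 16.2% of the aldolase FPKM in controls and 8.59 to 10.8% after silencing (exact permutation p = 0.1). The other 4 genes of these steps (ALDOA, PGK1, PGAM1 and BPGM, which makes 2,3-bisphosphoglycerate) had log2 fold changes between -0.15 and 0.18, and none was called.

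Lactate dehydrogenase works as a tetramer of LDHA and LDHB subunits. LDHA (ENSG00000134333) was at 114, 143 and 95.3 FPKM in si-NC samples and at 79.5, 77.2 and 96.4 in si-METTL16 samples. The groups overlapped, because si-METTL16 replicate 3 lay above si-NC replicate 3. The log2 fold change was -0.45 (SE 0.15, 95% interval -0.81 to -0.10), and the edgeR adjusted p of 0.0537 was just above the threshold. LDHA was called lower in 5 of 17 alternatives, among them upper quartile scaling (edgeR adjusted p = 0.0477), total counts (0.047) and the Wald test of DESeq2 (adjusted p = 0.016), with adjusted p between 0.016 and 0.197 over all 17. Pseudogenes of LDHA held 4.37% of the counts of gene and pseudogenes together.

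LDHB varied little. It was at 161, 172 and 177 FPKM in controls and at 155, 154 and 159 after silencing, without overlap, and its log2 fold change of -0.10 (SE 0.05, 95% interval -0.23 to 0.02) was not called (edgeR adjusted p = 0.164). LDHA held 41.4, 45.3 and 35% of the summed FPKM of the pair in controls and 33.8, 33.4 and 37.8% after silencing. These shares overlapped (exact permutation p = 0.2), and LDHB was the more abundant transcript in every sample.

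Of the lactate transporters, SLC16A1 (MCT1) rose and SLC16A3 (MCT4) was not called. SLC16A1 (ENSG00000155380, chr1:112911847-112957013, minus strand) was at 16, 15.9 and 14.7 FPKM in controls and 19.5, 18.8 and 18.4 after silencing. Each silenced sample was above each control. The log2 fold change was 0.30 (SE 0.06, edgeR adjusted p = 0.00801), and all 17 alternatives called it. An antisense RNA, SLC16A1-AS1, overlaps it over 231 exonic bases and rose by 1.16 on the log2 scale (edgeR adjusted p = 0.00269). Reads of the overlap cannot be assigned without strand. The antisense RNA had 451 counts in all beside 16059 for SLC16A1, and its part in the SLC16A1 rise was not tested.

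SLC16A3, known as the hypoxia-inducible lactate exporter, was at 15.8, 22.7 and 18 FPKM in controls and 15.1, 15.2 and 17.3 after silencing. Its groups overlapped and the log2 fold change was -0.23 (SE 0.13, 95% interval -0.54 to 0.08, edgeR adjusted p = 0.215). SLC16A1 held 50.3, 41.2 and 44.9% of the FPKM of both transporters in controls and 56.4, 55.4 and 51.5% after silencing, a difference of 8.93 percentage points (exact permutation p = 0.1). BSG (basigin), the chaperone that both transporters need at the membrane, rose by 0.31 on the log2 scale (edgeR adjusted p = 0.0175), and EMB (embigin), its relative, fell by 0.28 (0.00584).

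The PFKFB enzymes make and break fructose-2,6-bisphosphate, the strongest activator of phosphofructokinase, and PFKFB3 has the highest kinase activity among them. PFKFB3 was at 1.16, 1.09 and 1.23 FPKM in si-NC samples and at 1.56, 1.59 and 3.55 in si-METTL16 samples. All silenced samples lay above the controls, with replicate 3 far above the other 2. The log2 fold change was 0.96 (SE 0.32, 95% interval 0.22 to 1.71), the largest of the list, and its edgeR adjusted p was 0.0508. Without si-METTL16 replicate 3 the log2 fold change was 0.47 and was called (edgeR adjusted p = 0.0248), and 6 of 17 alternatives called it in all. PFKFB2 (4.89 to 6.16 FPKM) and PFKFB4 (2.76 to 4.44 FPKM) were not called, with 95% intervals of -0.33 to 0.04 and -0.52 to 0.54.

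Pyruvate dehydrogenase kinases inhibit the entry of pyruvate into the mitochondrial citric acid cycle. PDK2 (ENSG00000005882, chr17:50094737-50112152, plus strand), a broadly expressed form, was at 3.62, 3.73 and 3.32 FPKM in controls and at 1.67, 1.98 and 2.33 after silencing. No silenced sample reached a control. PDK2 fell to 56.9% of control, the largest fall of the list (log2 fold change -0.81, SE 0.13, edgeR adjusted p = 0.00308), and all 17 alternatives called it. It shares 2113 exonic bases with SAMD14 on the other strand, which was counted 276 times in all beside 2957 for PDK2 and had a log2 fold change of -0.80 (edgeR adjusted p = 0.0891). Since the use of strand in counting is not given in the sources used here, reads of the shared bases cannot be told apart.

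PDK1, the form induced by hypoxia, was at 1.46, 2.25 and 1.98 FPKM in controls and 1.35, 2.33 and 2.04 after silencing, with overlapping groups and a log2 fold change of 0.03 (SE 0.23, 95% interval -0.51 to 0.56, edgeR adjusted p = 0.94). PDK3 (1.3 to 1.51 FPKM) and PDK4 (1.42 to 1.91 FPKM), the form raised by fasting, were not called either, with 95% intervals of -0.28 to 0.28 and -0.46 to 0.09. PDK2 was the largest of the 4 in every control, with 44.6, 40.6 and 38.1% of their summed FPKM. After silencing it held 27.6, 26.6 and 32.9%, a difference of -12.1 percentage points (exact permutation p = 0.1), and in replicate 2 PDK1 was the larger at 31.3%.

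**Figure D3:**
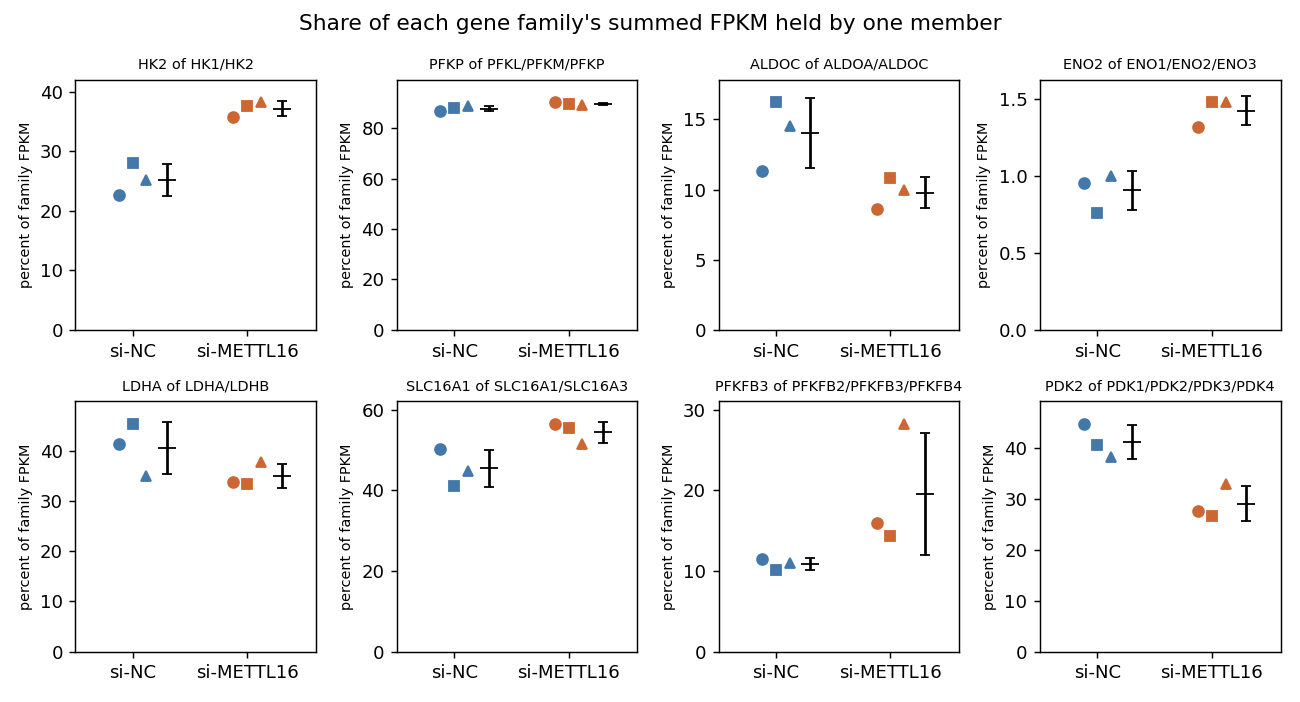
Share of a gene family's summed FPKM held by 1 member (y axis, percent, from 0) in each si-NC (blue) and si-METTL16 (orange) sample, with circles, squares and triangles for replicates 1, 2 and 3 and black bars for mean and SD (n = 3). The panels run from HK2, at 22.6 to 28% against 35.7 to 38.2%, to PDK2, at 38.1 to 44.6% against 26.6 to 32.9%. The groups overlap for LDHA and are separate in the other panels. In scaled counts, a different measure, the groups were separate for 50.9% of all tested genes. The 8 panels are a selection of members. Of those not shown, the shares of SLC2A1, SLC2A3, PFKL, ENO3, LDHB, PFKFB2, PFKFB4, PDK1 and PDK4 overlapped between the groups. Those of HK1, PFKM, ALDOA, ENO1, SLC16A3 and PDK3 were separate. The shares of HK1, ALDOA and SLC16A3 only mirror those of HK2, ALDOC and SLC16A1, since the shares of a family add up to the whole. A share also moves when another member of its family changes.

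Within the groups, several members varied together. In the scaled counts, replicate 1 was the lowest of its group in both groups for 12 of the 31 genes (38.7%), beside 13.7% of all tested genes. The 12 are SLC2A1, HK2, GPI, ALDOA, ALDOC, GAPDH, PGK1, PGAM1, ENO1, PKM, PFKFB4 and PDK1. This was noticed after the values were seen. Replicates 2 and 3 were each the lowest in both groups for 1 gene. The median deviation of the 31 genes from their group mean was -0.08 in replicate 1 of si-NC and -0.09 in replicate 1 of si-METTL16 on the log2 scale, and between 0.00 and 0.09 in the other 4 samples, while over all tested genes it was at most 0.01 in size in every sample. PDK1 and PFKFB4 show the pattern most clearly, with replicate 1 at 1.46 and 1.35 FPKM for PDK1 and at 2.76 and 2.81 for PFKFB4. Of 24 tested hypoxia-inducible genes outside glycolysis, replicate 1 was the lowest in both groups for 3. For the other lists described below, it was so for 6 of 16 genes of glycogen and UDP-glucose. It was also so for 8 of 30 neighbours of pyruvate and lactate. The counts were 2 of 13 for other glucose transporters and isozymes and 2 of 12 for the pentose phosphate pathway. For regulators of glucose use the count was 3 of 29. The pattern was not limited to the 31 genes. With both replicate 1 samples left out, edgeR called 2 members higher and 2 lower, TPI1 and PGM1 having lost their calls, while it called 3531 of all genes, against 5418 with them.

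**Figure D4:**
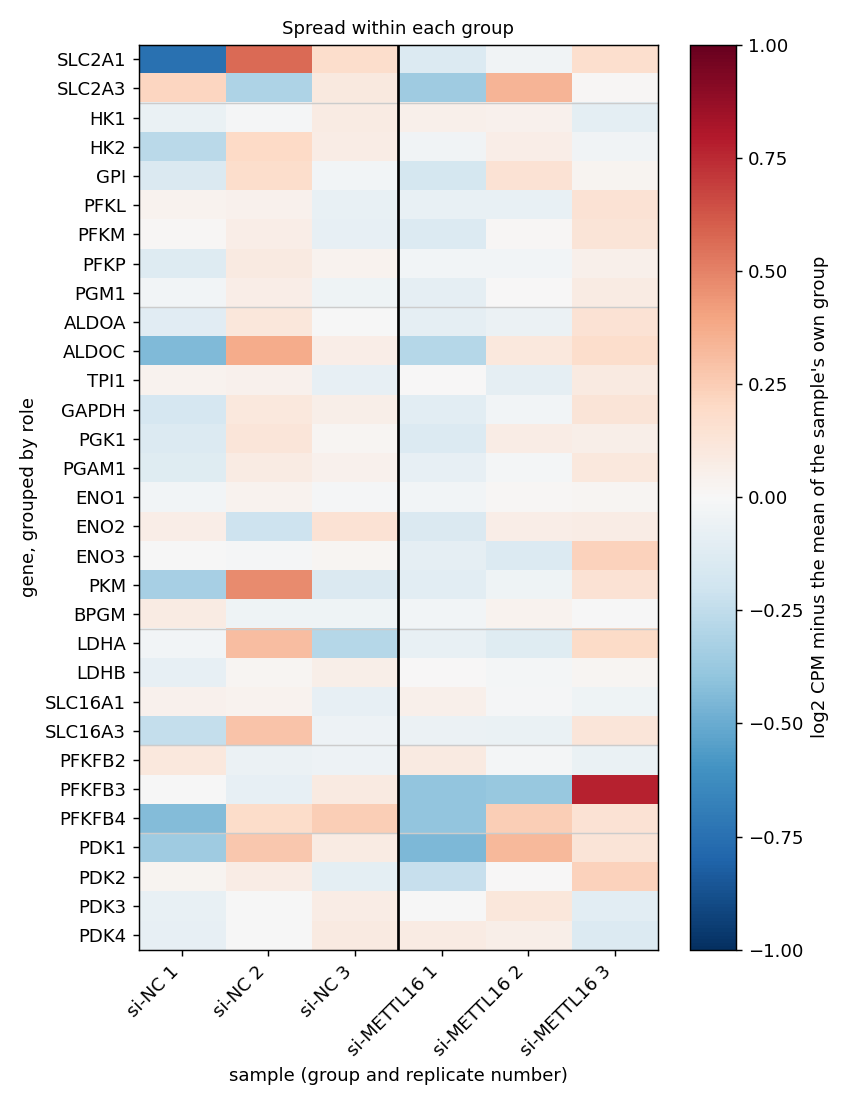
Deviation of each sample's log2 CPM from the mean of its own group (colour, log2 scale, red above and blue below the mean) for the 31 genes (rows, grouped by role) in the 6 samples (columns, si-NC left and si-METTL16 right of the black line). The first column of each group is blue for most genes, with medians of -0.08 and -0.09, and si-METTL16 replicate 3 is the only deep red cell in the PFKFB3 row.

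Around these 31 genes, 6 lists of related genes were described in the same fit. Among other glucose transporters, isozymes, phosphatases and bypass enzymes, 13 of 22 genes were tested, 2 were higher and 6 lower (61.5% called, beside 35.9% of all tested genes), with a median log2 fold change of -0.39. SLC2A12, a further glucose transporter, went from 24.9, 21.1 and 23.5 FPKM in controls to 13.6, 11.1 and 12.5 after silencing, and fell by 0.88 on the log2 scale (edgeR adjusted p = 0.000788). SLC2A6 fell by 0.88 (0.0024), SLC2A8 by 0.86 (0.000317) and LDHD, the mitochondrial D-lactate dehydrogenase, by 1.20 (0.00518). PGAM5, a mitochondrial phosphatase of the phosphoglycerate mutase family, rose by 0.65 (0.00104), and ENOPH1 of the methionine salvage pathway by 0.58 (0.00771). The other tested transporters of this list, SLC2A10 (log2 fold change 0.40) and SLC2A13 (0.12), were not called (edgeR adjusted p = 0.674 and 0.411).

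The pentose phosphate pathway branches off at glucose-6-phosphate and makes NADPH and ribose. All 12 of its genes were tested, 2 rose and 4 fell (50% called, beside 35.9% of all tested genes), with a median of 0.04. PGLS, an enzyme of the NADPH-forming arm, was at 4.43, 3.66 and 4.49 FPKM in controls and 2.84, 2.18 and 2.82 after silencing, and fell by 0.66 on the log2 scale (edgeR adjusted p = 0.0119). H6PD fell by 0.37 (0.0374) and TALDO1 by 0.30 (0.0439). RPIA, which forms ribose-5-phosphate, rose by 0.39 (0.0198) and PRPS1, which uses it for nucleotides, by 0.54 (0.00109).

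Of 16 genes of glycogen and UDP-glucose, all were tested, 3 rose and 4 fell (43.8% called, beside 35.9% of all tested genes), with a median of -0.04. STBD1, a glycogen-binding protein, rose by 0.97 on the log2 scale (edgeR adjusted p = 0.047), GYG1 by 0.35 (0.0112) and the branching enzyme GBE1 by 0.34 (0.0363). The phosphorylase PYGB fell by 0.43 (0.012), the PGM1 relative PGM2L1 by 0.33 (0.00808) and EPM2A by 0.60 (0.013). The neighbours of pyruvate and lactate (mitochondrial carriers, pyruvate dehydrogenase, transaminases, malate enzymes) had 30 of 31 genes tested, of which 3 rose and 3 fell (20% called, beside 35.9% of all tested genes), with a median of -0.04. Besides BSG and EMB these were GOT1 (log2 fold change 0.35, edgeR adjusted p = 0.0241), DLD (0.18, 0.0335), ME2 (-0.48, 0.0453) and SLC25A11 (-0.26, 0.0312).

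Of 29 tested transcription and sensing factors of glucose use, 7 were higher and 7 lower (48.3% called, beside 35.9% of all tested genes), with a median of -0.08. MYC was at 0.889, 2.24 and 0.493 FPKM in controls and 8.62, 7.61 and 5.94 after silencing, a rise of 2.64 on the log2 scale (SE 0.49, edgeR adjusted p = 0.00607). Its obligate partner MAX fell by 1.12 (0.00157). EGLN1, the oxygen-sensing hydroxylase of hypoxia-inducible factors, rose by 0.54 (0.000913). AMP kinase subunit PRKAA2 rose by 0.71 (0.00259) and AKT1 by 0.41 (0.00268). The remaining 3 genes called higher were EPAS1 (0.27, edgeR adjusted p = 0.0436), AKT2 (0.26, 0.029) and HIF1A (0.23, 0.0374). PPARGC1A, a coactivator of mitochondrial genes, fell by 2.54 (0.00786) from 0.118, 0.0705 and 0.212 FPKM to 0.0159, 0.0252 and 0.0256. Its counts were low, at 30, 18 and 56 in controls and 4, 6 and 7 after silencing. ESRRA, a partner of PPARGC1A, fell by 0.85 (0.000588). The glucose-responsive arrestin ARRDC4 fell by 0.79 (0.0043).

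Hypoxia-inducible genes outside glycolysis showed 3 higher and 4 lower of 24 tested (29.2% called, beside 35.9% of all tested genes), with a median of -0.15. ADM rose by 1.18 on the log2 scale (edgeR adjusted p = 0.000122), ERO1A by 0.92 (0.000161) and P4HA2 by 0.32 (0.0473). PLOD2 fell by 0.80 (0.000163), RAB20 by 0.48 (0.0418) and PPFIA4 by 0.92 (0.0354).

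Markers of the line were checked once. The 9 ductal and epithelial markers summed to 353 to 455 FPKM in controls and 361 to 401 after silencing, led by KRT8 and KRT18, with CFTR at or near 0. Among them KRT19 fell by 1.40 on the log2 scale (edgeR adjusted p = 0.00111), CDH1 by 1.09 (0.00594), KRT7 by 0.84 (0.0117) and SOX9 by 0.25 (0.00987), and the other 4 tested markers were not called. Acinar, endocrine and endothelial markers summed to at most 0.18, 0.481 and 0.0695 FPKM in any sample. The 5 fibroblast markers summed to 25.1 to 29 FPKM in controls and 60.9 to 64.5 after silencing. This was almost entirely COL1A1, while COL1A2, DCN, LUM and PDGFRB stayed under 0.1 FPKM. The 4 leukocyte markers summed to 1.19 to 1.21 and 1.63 to 1.99 FPKM, almost entirely CD68, with CD3E at 0. The part of these marker levels in the results above was not tested.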

How the data were processed

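PANC-1 RNA sequencing of 3 si-NC and 3 si-METTL16 samples was used, with groups taken from the titles. The authors deposited whole-number counts that were not normalized, and FPKM values, which equal the counts divided by gene length and total count, with the implied length differing between samples by at most 0.0588%. The submitters' processing notes name HISAT2 2.0.4, StringTie 1.3.0 and GRCh38. The counting program, annotation release and use of strand are not given in the sources used here. Among overlaps not named above, SLC16A3 shares 482 exonic bases with CSNK1D and PFKFB2 shares 315 with YOD1, both on the other strand. ALDOA shares 1639 exonic bases with another protein-coding gene on the same strand. Gene positions are those of the deposited table, which match GENCODE v44 at both ends for 14 of the 31 genes. In the table, 27 symbols turned into dates by a spreadsheet were restored from their gene identifiers.

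Counts were scaled by TMM and filtered with filterByExpr at its defaults (minimum count 10, minimum total count 15), leaving 15089 genes. The quasi-likelihood test of edgeR 4.0.16 (glmQLFit, glmQLFTest; R 4.3.3) was applied, and p-values were adjusted after Benjamini and Hochberg over all 15089 genes with a threshold of 0.05. The standard error was the absolute log2 fold change divided by the root of F. Log2 CPM values used a prior count of 2. Family shares were compared by two-sided exact permutation tests. A total of 3 counts corresponded to between 0.166 and 0.191 CPM per sample. The common biological coefficient of variation was 16.5%. Within groups the chi-square per degree of freedom between samples was at least 15.6, so no sample was a copy of another. P-values measure the spread between these cultures.

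Alternatives were DESeq2 size factors, upper quartile scaling, total counts, no filter, at least 10 counts in every sample, the Wald test of DESeq2 1.42.0, limma 3.58.1 on voom values and on log2(FPKM + 1) and log2(FPKM + 0.1) where the mean FPKM reached 1, a block for the replicate number, leaving out single samples, and shares from CPM. Leaving out both replicate 1 samples was added after seeing the data. The members and lists were chosen with earlier results of these data known. FPKM values per sample, fold changes and adjusted p were given for called genes and for SLC2A1, HK2, PFKP, PFKFB3, GAPDH, PKM, LDHA, LDHB, SLC16A1, SLC16A3 and PDK1 whatever their result, and for each related list up to 4 called genes per direction with a mean of at least 1 CPM, by size of the fold change, some of which are not reported here. ALDOC, ENO2, ENO3, EPAS1, AKT2, HIF1A, SLC2A10 and SLC2A13 were added to these after their values were seen. Promoter windows came from RefSeq (GRCh38.p14). A comparison of protein sequences was not made here. The scripts were tested on simulated data.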

Additional observations from a re-analysis of the deposited data

How the results depend on the processing

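METTL16, HK2, SLC16A1, ENO1 and PDK2 kept their direction and their call under all 17 alternatives. Of 525 recomputed log2 fold changes of the 31 genes, 474 kept direction and side of the threshold, 22 moved past it, 6 lost it (TPI1 and PGM1) and 23 changed sign. The number of members called lower was 5 under upper quartile scaling and under total counts, and the number called higher was 5 under the Wald test of DESeq2. With both replicate 1 samples left out, 3531 genes and 30 related genes were called, against 5418 and 48 with all 6 samples. The cause of these shifts was not tested, except that fewer samples entered the last. Leaving out 1 sample gave 2 to 5 members called higher and 3 to 5 called lower.

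Signs changed only for genes with log2 fold changes near 0. HK1 was at -0.0036 under upper quartile scaling and -0.04 without both replicate 1 samples. PFKFB4 was at -0.02 under upper quartile scaling and -0.01 under total counts, both FPKM settings and without both replicate 1 samples. PDK1 was at -0.0029, -0.0014 and -0.01 under upper quartile scaling, log2(FPKM + 1) and log2(FPKM + 0.1). Leaving out 1 sample gave -0.01 to 0.07 for HK1, -0.01 to 0.15 for GPI, -0.02 to 0.09 for PFKL, -0.18 to 0.18 for PFKFB4, -0.14 to 0.22 for PDK1 and -0.06 to 0.05 for PDK3.

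Samples with the same replicate number correlated by 0.0253, 0.0371 and 0.0298 in their deviations from the group means over 15089 genes. The numbers were therefore not taken to pair the samples, although over these genes each sample correlated best with its own number. Over the 31 genes the values were 0.285, -0.046 and -0.0161, and si-NC replicate 3 correlated best with si-METTL16 replicate 2 (0.386). With the replicate number as a block, 5013 genes were called, 4 members were higher and 3 lower, PKM (edgeR adjusted p = 0.0494) and PFKFB3 (0.0466) passed the threshold and TPI1 (0.0506) did not. The ratio of a member's standard error with the block to that without it ranged from 0.37 (PDK1) to 1.19 (SLC2A3). Shares from CPM in place of FPKM gave smaller differences for HK2 (8.81 points) and ALDOC (-2.19 points) and larger ones for PFKP (3.04 points). SLC2A3 was left out of both FPKM settings by the minimum of 1 FPKM. SLC2A3 has the lowest counts of the members, at 28 to 55 per sample, and all values rest on 3 samples per group.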
